A study of Rattus norvegicus with 62 samples.

Results

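Repair Schwann cell factors are proteins that Schwann cells are known to use or switch on when a nerve is cut or crushed. The 9 genes chosen by name as members of this group were Runx2, Olig1, Sox2, Pou3f1, Id2, Shh, Fgf5, Cdh2 and L1cam, of 40982 genes counted in each of 2 tables. Each member had exactly 1 row in both tables. Poly-A RNA of the L4 dorsal root ganglion of rats was sequenced after chronic constriction injury (CCI), a model of neuropathic pain in which loose ligatures are tied around the sciatic nerve. Each comparison was of ipsilateral ganglia, on the side of the injury, with contralateral ganglia, and every rat of the study, the contralateral ganglia included, thus came after injury. Males were sampled at 24 h (6 ipsilateral and 6 contralateral libraries), 1 week (7 and 7) and 5 weeks (5 and 5), and females at 1 week (7 ipsilateral and 7 contralateral) and 5 weeks (6 of each side). The strain and age were not given in the sources used here, and no ganglia of uninjured or sham-operated rats were analysed here.

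After a nerve injury Schwann cells leave the myelinating state and become repair cells, which clear myelin, guide regrowing axons and secrete trophic factors. The transcription factor Jun drives much of this conversion. Sox2 and Id2 are kept low by the myelin programme and return in repair cells, Pou3f1 (Oct6) marks the promyelinating stage, and Olig1, Shh and Fgf5 are little made by intact Schwann cells but are switched on in cut nerves. Runx2 is best known as the master factor of bone-forming cells and is also made by Schwann cells after injury. Cdh2 (N-cadherin) and L1cam are adhesion molecules of axons and immature or non-myelinating Schwann cells. Several of these genes are also active in other cells of the ganglion, as Sox2 is in satellite glia and L1cam in neurons.

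The 62 libraries held 16.9 M to 33.5 M counts each. Levels are given as CPM, counts scaled to a common library size (TMM), separately in each table, and differences as log2 fold changes of ipsilateral over contralateral from edgeR's quasi-likelihood test. A difference was called where the Benjamini-Hochberg adjusted p over all genes tested was under 0.05. Atf3, a transcription factor switched on by axon injury, lay between 144.85 and 375.91 CPM in every ipsilateral library and between 5.5959 and 13.353 CPM in every contralateral one. Of Kdm5d and Eif2s3y, genes of the Y chromosome, every male library held at least 498.5 estimated counts and no female library more than 0.33. The labels record which rat a library came from for the female and the 24 h libraries only. For the other males the p-values thus measure the spread between samples, which may be technical. The main fits compared groups and left out this pairing, so both ganglia of a rat entered as separate samples. Pairs below are same-numbered libraries of both sides, and in the other males a shared rat is not recorded. How well the pairs correlated is given with the processing.

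Per transcript length the members spanned a wide range. In TPM, which also divides by exon length, L1cam averaged 324 in ipsilateral and 288 in contralateral libraries, Cdh2 82.8 and 79.2, Shh 53.8 and 45, and Id2 51.4 and 55.5. Sox2 averaged 30.9 TPM in ipsilateral and 25.7 in contralateral libraries, and Pou3f1 10.6 and 9.62. Fgf5 and Runx2 were low, with 1.39 and 1.34 TPM ipsilaterally and 0.778 and 0.753 TPM contralaterally. Over single libraries Shh spanned 33.6 to 74.9 TPM and Id2 38 to 73.2, so this pair could not be ordered, nor could Fgf5 (0.176 to 3.11) and Runx2 (0.479 to 1.99). Olig1 was close to absent. It had at most 3 estimated counts in any library, 44.25 in all 62 together, and none in 34 libraries. It did not pass the filter on low counts in either table, so no side could be told from the other at this depth, and 8 of the 9 members were tested.

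The side difference of the members was small at 24 h and broader later. At 24 h in males 2 of the 8 members tested were called, where 14.1% of all genes were, 1 of them higher (8.23% of all genes) and 1 lower (5.9%). Males at 1 week had 4 of 8 called (47% of all genes) and at 5 weeks 5 of 8 (34.7%), all of them higher on the ipsilateral side. Females at 1 week had 6 members higher and 1 lower (45.7% of all genes called, 21.8% lower), and at 5 weeks 6 higher and none lower (42%). The share of members called was thus not far from that of all genes in males at 1 week and above it in the other week arms, and 1 called member of these arms was lower. Higher genes made up 23.6%, 16%, 23.9% and 22.9% of all genes tested in those 4 arms. The members were chosen with earlier results of these data known, so these shares describe them and are not a test. The median log2 fold change of the 8 members was 0.06 at 24 h, 0.20 and 0.28 in males at 1 and 5 weeks, and 0.28 and 0.24 in females, while the median of all genes lay between -0.009 and 0.015. The groups did not overlap for 0 of 8 members at 24 h (5.45% of all genes), 3 and 4 in males at 1 and 5 weeks (22.1% and 21%), and 2 and 3 in females (20.9% and 21.8%). Reads came from whole ganglia, so a change in the number of a cell type and a change in RNA per cell cannot be told apart.

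**Figure D1:**
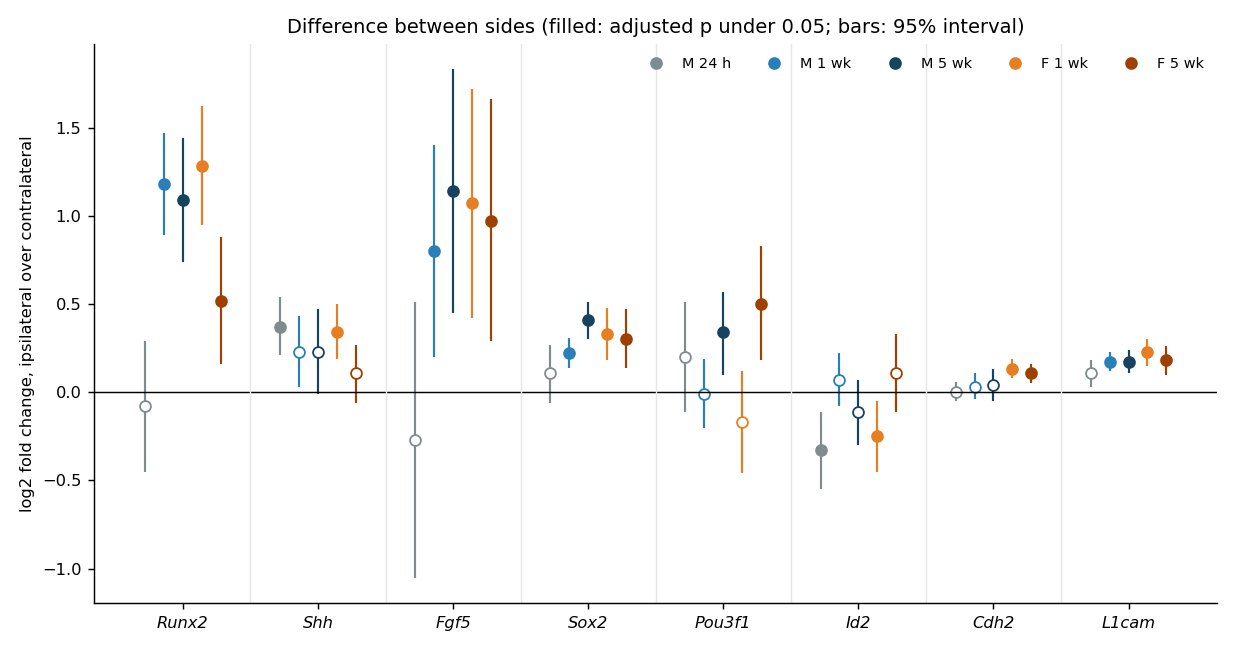
Log2 fold change of ipsilateral over contralateral ganglia (vertical axis) for the 8 tested members in the 5 arms (points, left to right: males at 24 h, 1 and 5 weeks, females at 1 and 5 weeks), with 95% intervals as bars. Filled points passed the adjusted threshold. Runx2 and Fgf5 lie near or above 0.5 in the 4 week arms, and L1cam and Cdh2 lie close to 0 with narrow intervals.

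Runx2 showed the clearest gain of the transcription factors. It rose 2.26-fold at 1 week in males and 2.43-fold in females, stayed 2.13-fold higher at 5 weeks in males and 1.43-fold higher in females, and showed no call at 24 h. At 5 weeks in males it lay at 6.08, 8.23, 5.21, 10.7 and 9.62 CPM in ipsilateral libraries and at 3.37, 3.44, 4.73, 3.22 and 3.96 CPM in contralateral ones. Every ipsilateral library stood above every contralateral one (log2 fold change 1.09 ± 0.18 SE, adjusted p = 3.45e-05, edgeR).

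At 1 week in males Runx2 ranged from 6.02 to 10.6 CPM (median 7.41) ipsilaterally and from 3.12 to 4.1 CPM (median 3.4) contralaterally. In females at 1 week it ranged from 5.43 to 9.91 CPM (median 8.93) ipsilaterally and from 2.54 to 4.34 CPM (median 3.63) contralaterally. In both comparisons the groups did not overlap, with log2 fold changes of 1.18 ± 0.149 SE (adjusted p = 4.45e-07, higher in 7 of 7 pairs) and 1.28 ± 0.172 SE (adjusted p = 8.48e-08, 7 of 7). At 24 h the ranges were 3.33 to 5.49 CPM (median 4.48) ipsilaterally and 3.08 to 7.2 CPM (median 4.36) contralaterally, and the log2 fold change was -0.08 ± 0.188 SE (adjusted p = 0.835).

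Females at 5 weeks were the exception among the later arms. Their 6 ipsilateral libraries held 7.41, 5.25, 7.76, 6.41, 6.9 and 5.52 CPM of Runx2, and their 6 contralateral libraries 5.98, 3.06, 5.76, 6.13, 3.37 and 2.97 CPM. The contralateral libraries fell into 3 near 6 and 3 near 3 CPM, and the groups overlapped, although Runx2 was higher in 6 of 6 pairs (log2 fold change 0.52 ± 0.185 SE, adjusted p = 0.0224). The call was lost without contralateral library 2, 5 or 6 or ipsilateral library 1 or 3 (adjusted p 0.0511 to 0.072) and in a fit of these 2 groups alone (adjusted p = 0.0503). With the replicate number as a block it held at adjusted p = 0.00201.

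The gene lies on chromosome 9 (16167504 to 16492826, forward strand, build mRatBN7.2) and overlaps Supt3h on the other strand. The library kit keeps the strand, but whether counting used it was not given in the sources used here. Supt3h had log2 fold changes of -0.10, -0.15, -0.08, -0.09 and -0.13 in males at 24 h, 1 and 5 weeks and females at 1 and 5 weeks, called in males at 1 week and females at 5 weeks (adjusted p = 0.00491 and 0.0239). RefSeq's table for build GRCr8 gives promoters for 4 of the 9 members, and Runx2 has 2 starts, shown because Runx2 and Fgf5 were the members with the largest rises. Each window runs 5′ to 3′ from 250 bases before to 50 after the start, on the forward strand at chr9:23664808-23665107 and chr9:23742990-23743289. Both strands were searched for the AP-1 motif TGANTCA, the cyclic AMP response element TGACGTCA, the RUNX motif ACCACA, the SOX motif ACAAAG, the STAT motif TTCNNNGAA and the TATA box TATAAA. Capitals mark the matches.
Runx2 upstream start: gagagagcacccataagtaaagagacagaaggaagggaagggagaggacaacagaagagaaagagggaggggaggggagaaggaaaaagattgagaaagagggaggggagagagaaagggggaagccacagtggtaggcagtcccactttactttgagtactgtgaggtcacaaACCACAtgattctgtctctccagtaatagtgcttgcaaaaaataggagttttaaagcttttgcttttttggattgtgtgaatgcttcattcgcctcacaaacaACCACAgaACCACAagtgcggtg
Runx2 downstream start: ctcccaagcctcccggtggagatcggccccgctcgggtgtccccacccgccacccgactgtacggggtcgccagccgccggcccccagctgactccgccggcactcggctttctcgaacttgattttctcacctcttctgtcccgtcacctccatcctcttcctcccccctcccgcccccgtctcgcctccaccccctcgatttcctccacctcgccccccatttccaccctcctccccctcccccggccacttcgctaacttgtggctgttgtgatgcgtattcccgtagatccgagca
The upstream window held 3 copies of the RUNX motif, at -76, 28 and 36 from the start, and the downstream window held none of the 6 motifs. Of 33469 promoters of the same length, 17.3% held the RUNX motif at least once. The counts per gene do not tell which start was used.

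Because Runx2 is also a bone gene, 12 bone and cartilage markers were summed per library. Their sum ran from 118 to 179 CPM ipsilaterally and 156 to 189 CPM contralaterally in males at 1 week, from 92.6 to 122 and 99.9 to 192 CPM in females at 1 week, and from 66.1 to 97.5 and 74.8 to 126 CPM in females at 5 weeks. Most of the sum came from the cartilage collagen Col2a1 and from Alpl, an alkaline phosphatase that is not particular to bone, which averaged 41.7 and 31.3 CPM ipsilaterally and 85.2 and 36.9 CPM contralaterally in females at 1 week. The sum therefore says little of the other markers. Acp5 and Ctsk, genes of bone-resorbing cells, were higher in 7 of 7 pairs in males at 1 week but not called (adjusted p = 0.393 and 0.0899). In males at 5 weeks it ran from 69.5 to 279 CPM ipsilaterally and 96.6 to 135 CPM contralaterally. Ipsilateral library 4 had both the highest sum (279 CPM) and the highest Runx2 (10.7 CPM) of that arm, and without it the log2 fold change was 0.98 (adjusted p = 0.000139).

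In males at 24 h the sum ran from 181 to 282 CPM ipsilaterally and from 192 to 410 CPM contralaterally. There 5 of 12 markers were called, all lower ipsilaterally (14.1% of all genes called, 5.9% lower). Contralateral library 5 had the highest sum (410 CPM) and the highest Runx2 (7.2 CPM), and without it the log2 fold change of Runx2 was 0.07 (adjusted p = 0.884). None of the 12 markers was at 0 in all libraries of a group. In males 1 of the 12 rose and 1 fell at 1 week, and 1 rose and none fell at 5 weeks. In females 1 rose and 2 fell at 1 week, and none rose and 2 fell at 5 weeks. In these arms 47%, 34.7%, 45.7% and 42% of all genes were called. Col2a1 fell in males at 1 week and in females at 1 and 5 weeks. Alpl fell in females at 1 week and Col10a1 in females at 5 weeks. Ibsp was the marker that rose each time, and it was chosen after its values were seen. Like Runx2 it rose at 1 week in both sexes and in males at 5 weeks. It fell at 24 h, where Runx2 was not called, and was not called in females at 5 weeks. Ibsp, a bone matrix sialoprotein, averaged 7.67 CPM ipsilaterally and 2.08 contralaterally in males at 1 week and 7.40 and 1.46 CPM in females at 1 week, with log2 fold changes of -1.80, 1.88, 1.72, 2.33 and 0.77 over the 5 arms (adjusted p = 0.0148, 0.00234, 0.0202, 0.000157 and 0.234, edgeR). In males at 5 weeks Ibsp ran from 3.61 to 26.8 CPM ipsilaterally and from 1.68 to 5.52 CPM contralaterally, higher in 4 of 5 pairs. Sp7, Bglap and Dmp1, other bone genes, were not called in any week arm. Sp7 was low, with means of 0.644 CPM ipsilaterally and 0.416 contralaterally in females at 1 week. It was higher there in 7 of 7 pairs (log2 fold change 0.62, adjusted p = 0.192, edgeR). The part of bone tissue in the Ibsp and Runx2 values was not tested.

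**Figure D2:**
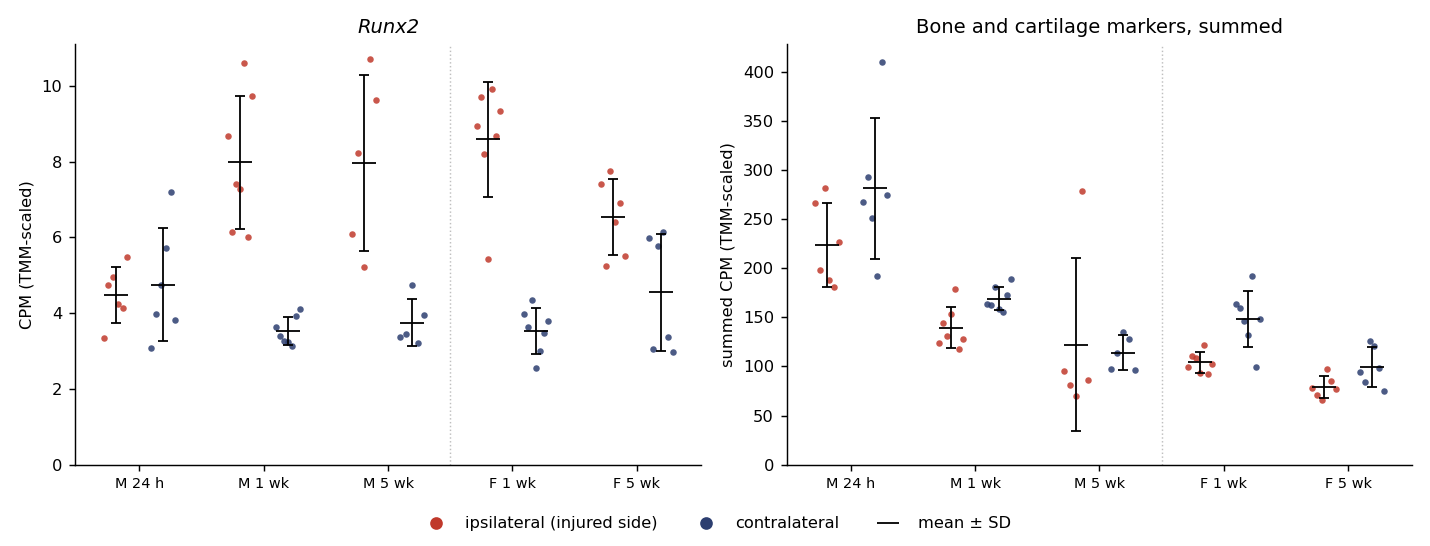
Left, TMM-scaled CPM of Runx2 per library (points) in the 5 arms, ipsilateral left of contralateral, with mean ± SD and a dotted line between male and female arms. Right, the summed CPM of 12 bone and cartilage markers in the same libraries. Runx2 is higher ipsilaterally in the 4 week arms, and the sum, carried mainly by Col2a1 and Alpl, reaches 279 CPM in 1 ipsilateral library of males at 5 weeks.

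Among 9 relatives and cofactors of the Runx family 1 gene rose in each arm and 3, 5, 4, 7 and 2 fell in males at 24 h, 1 and 5 weeks and females at 1 and 5 weeks, with list medians of -0.16, -0.26, -0.20, -0.24 and -0.10. Of all genes 14.1%, 47%, 34.7%, 45.7% and 42% were called in these arms. Tle3, a Groucho-type corepressor, was the gene that rose, by log2 fold changes of 0.32, 0.70, 0.58, 0.71 and 0.66. Tle4, its relative, fell by 0.40, 0.55, 0.57, 0.50 and 0.44 on the log2 scale. Cbfb, the partner that Runx proteins need to bind DNA firmly, fell by 0.31 in males and 0.23 in females at 1 week (adjusted p = 0.000416 and 0.00128) and by 0.21 in males at 5 weeks (adjusted p = 0.0497). It had -0.14 at 24 h and -0.10 in females at 5 weeks, neither called. Runx1t1, a corepressor, fell by 0.47, 0.29, 0.27 and 0.26 in the first 4 of these arms and had -0.14 in females at 5 weeks (adjusted p = 0.0724).

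Sox2, a SoxB1 factor that holds Schwann cells immature and clusters them in regrowing nerves, was modestly higher on the ipsilateral side in all 4 week arms. At 5 weeks in males it lay at 24, 27.1, 28.3, 28.3 and 26.3 CPM ipsilaterally and at 20.9, 18.5, 21.3, 20.4 and 20 CPM contralaterally. The groups did not overlap (log2 fold change 0.41 ± 0.0526 SE, 1.33-fold, adjusted p = 1.29e-06).

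In males at 1 week Sox2 ranged from 24.8 to 28.8 CPM (median 26.8) ipsilaterally and from 21.4 to 24 CPM (median 23) contralaterally, and in females at 5 weeks from 26.6 to 31.1 (median 28.6) and from 20.2 to 24.1 CPM (median 23.9). Neither comparison overlapped, with log2 fold changes of 0.22 ± 0.0435 SE (adjusted p = 0.000155) and 0.30 ± 0.084 SE (adjusted p = 0.00358). Females at 1 week ranged from 23.6 to 29.9 CPM (median 25.7) ipsilaterally and from 17 to 25.3 CPM (median 21.8) contralaterally, overlapping, with 0.33 ± 0.0779 SE (adjusted p = 0.000596) and 7 of 7 pairs higher. At 24 h the ranges were 19.7 to 27.3 CPM (median 25) ipsilaterally and 19.1 to 24.1 (median 22.9) contralaterally, and the difference of 0.11 was not called (adjusted p = 0.449). No left-out library ended the call in any of the 4 week arms, but against the contralateral libraries of 5 weeks the females at 1 week had 0.17 (adjusted p = 0.084). Of 10 satellite glia markers 2 were higher and 7 lower in males at 1 week, 1 and 2 in males at 5 weeks, 1 and 3 in females at 1 week, and 2 and 1 in females at 5 weeks. In these 4 arms 47%, 34.7%, 45.7% and 42% of all genes were called.

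Sox2 (chromosome 2, 117536929 to 117539338, forward strand) lies inside the long noncoding gene LOC103691527 on the same strand, and 32 of 62 libraries held fractional Sox2 counts, which come from shared reads. That gene itself was called in no arm, with log2 fold changes between -0.14 and 0.11. The promoter windows of Sox2 and Id2 held none of the 6 motifs.

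Pou3f1, a POU factor that brings Schwann cells to the edge of myelination, was higher ipsilaterally at 5 weeks in both sexes and not at 1 week. At 5 weeks in males it lay at 13.7, 13.3, 13.1, 15.8 and 15.2 CPM ipsilaterally and at 10.2, 10.4, 10.5, 12.8 and 12.4 CPM contralaterally, without overlap (log2 fold change 0.34 ± 0.118 SE, adjusted p = 0.0289). The adjusted p passed 0.05 without contralateral library 1, 2 or 3 or ipsilateral library 4 (0.058 to 0.0692).

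In females at 5 weeks Pou3f1 held 11.9, 10.2, 10.3, 15.4, 10.3 and 6.07 CPM ipsilaterally and 8.06, 7.06, 8.03, 9, 8.8 and 4.38 CPM contralaterally, higher in 6 of 6 pairs although the groups overlapped (0.50 ± 0.165 SE, adjusted p = 0.0138). Library 6 was the lowest on both sides. The call was lost without contralateral library 6 or ipsilateral library 4 (adjusted p = 0.051 and 0.0658) and in a fit of the 2 groups alone (adjusted p = 0.0714), and held with the replicate block at 0.000287.

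The contralateral level of Pou3f1 itself moved with time in females. It ranged from 4.38 to 9 CPM at 5 weeks and from 9.86 to 16.5 CPM at 1 week without overlap (log2 fold change of 5 weeks over 1 week -0.70 ± 0.159 SE, adjusted p = 0.00277), whereas ipsilateral means were 10.7 CPM at 5 weeks and 10.9 CPM at 1 week. Set against the contralateral libraries of 1 week, the ipsilateral libraries of 5 weeks had a log2 fold change of -0.20 (adjusted p = 0.334), and those of 1 week had 0.53 against the contralateral libraries of 5 weeks (adjusted p = 0.00582). The direction in females thus turned with the contralateral group used. In the same contralateral comparison 9 of 10 markers of myelinating Schwann cells (median -0.72), 19 of 24 myelin genes (median -0.56) and 6 of 10 fibroblast and perineurium markers (median -0.79) were lower at 5 weeks and none was higher. Of all genes 10.7% were called in that comparison. The part of these markers in the Pou3f1 values was not tested. In males at 1 week Pou3f1 ranged from 7.83 to 13.2 CPM ipsilaterally and 8.14 to 12 contralaterally, and at 24 h from 11.8 to 17.3 and 9.41 to 14.2 CPM, with log2 fold changes of -0.01 and 0.20, neither called (adjusted p = 0.953 and 0.464).

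Id2, an inhibitor of basic helix-loop-helix factors that represses myelin genes, was the member that fell, and it did so in 2 arms. At 24 h in males it ranged from 11.6 to 15.1 CPM (median 13.5) ipsilaterally and from 14.5 to 19.5 CPM (median 17.1) contralaterally, lower in 6 of 6 pairs (log2 fold change -0.33 ± 0.111 SE, adjusted p = 0.0389). In females at 1 week it ranged from 10.9 to 16.4 CPM (median 13.9) and from 13.1 to 18.8 CPM (median 17.4), lower in all but 1 of 7 pairs (-0.25 ± 0.102 SE, adjusted p = 0.0409). The groups overlapped in both arms.

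The 24 h call was lost without contralateral library 1, 2, 3 or 4 or ipsilateral library 2, 3 or 5 (adjusted p up to 0.103) and when no filter on low counts was applied (adjusted p = 0.0528). The call in females was lost without contralateral library 1, 2, 3 or 4 or ipsilateral library 4, 5, 6 or 7 (adjusted p up to 0.108), and against the contralateral libraries of 5 weeks the value was 0.04. With the replicate block both held, at adjusted p = 0.00512 and 0.00675. In the other 3 arms, males at 1 and 5 weeks and females at 5 weeks, the log2 fold changes were 0.07, -0.11 and 0.11, none called. In build mRatBN7.2 Id2 lies on chromosome 6 (41740556 to 41742393, reverse strand), Pou3f1 on chromosome 5 (136910391 to 136913371, forward strand) and Olig1 on chromosome 11 (30514379 to 30516521, forward strand).

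Of 18 listed relatives of these factors (Id, Olig, SoxB and POU3 genes, their E-protein partners and Notch targets) 11 were tested. None was called at 24 h, 3 rose and 1 fell in males at 1 week, 4 rose and none fell in males at 5 weeks, 3 rose and 1 fell in females at 1 week, and 5 rose and none fell in females at 5 weeks. The list medians were -0.04, 0.10, 0.16, 0.04 and 0.22, and 14.1%, 47%, 34.7%, 45.7% and 42% of all genes were called. Hes1 and Hey1, targets of Notch, rose in the 4 week arms, Hes1 by log2 fold changes of 0.51, 0.34, 0.50 and 0.57 and Hey1 by 0.18, 0.26, 0.35 and 0.28 in males at 1 and 5 weeks and females at 1 and 5 weeks. Tcf3, an E-protein that Id proteins bind, rose by 0.27, 0.23, 0.20 and 0.20 in the same arms. Olig2, the neighbour and relative of Olig1, had no count in any library and was not tested.

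Of the ligands, Fgf5 was 1.74 to 2.2-fold higher on the ipsilateral side in the 4 week arms, from few reads. Libraries held 2 to 41 estimated counts of it. At 5 weeks in males it lay at 0.979, 1.57, 0.438, 1.37 and 1.37 CPM ipsilaterally and at 0.347, 0.43, 0.418, 0.529 and 0.885 CPM contralaterally, overlapping but higher in 5 of 5 pairs (log2 fold change 1.14 ± 0.351 SE, adjusted p = 0.0132).

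At 1 week Fgf5 ranged from 0.372 to 1.36 CPM (median 0.531) ipsilaterally and from 0.249 to 0.602 CPM (median 0.356) contralaterally in males, and from 0.339 to 1 (median 0.703) and 0.0926 to 0.645 CPM (median 0.304) in females. The log2 fold changes were 0.80 ± 0.305 SE (adjusted p = 0.0334) and 1.07 ± 0.333 SE (adjusted p = 0.00796), each higher in 6 of 7 pairs. In females at 5 weeks the ranges were 0.473 to 1.15 CPM (median 0.758) ipsilaterally and 0.256 to 0.543 CPM (median 0.376) contralaterally, with 0.97 ± 0.349 SE (adjusted p = 0.0237) and 6 of 6 pairs higher. The groups overlapped in every arm.

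At 24 h Fgf5 ranged from 0.09 to 0.764 CPM ipsilaterally and from 0.285 to 0.421 CPM contralaterally, and the value of -0.27 was not called (adjusted p = 0.725, 95% interval -1.05 to 0.51). The call in males at 1 week rested on few reads. It was lost without contralateral library 2, 3, 5 or 6 or ipsilateral library 1 or 4, and without ipsilateral library 4 the log2 fold change was 0.54 (adjusted p = 0.132). It was also lost with limma-voom (adjusted p = 0.0569), and against the contralateral libraries of 5 weeks the calls at 1 week were lost in males (0.40, adjusted p = 0.35) and in females (0.74, adjusted p = 0.0733). In females at 5 weeks it was lost without contralateral library 5 or ipsilateral library 4 (adjusted p = 0.0548 and 0.0668).

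Fgf5 lies on chromosome 14 (11325334 to 11346570, reverse strand, mRatBN7.2). Its promoter window on the reverse strand at chr14:11650194-11650493 of GRCr8 held 1 SOX motif and 1 TATA box, in capitals.
Fgf5: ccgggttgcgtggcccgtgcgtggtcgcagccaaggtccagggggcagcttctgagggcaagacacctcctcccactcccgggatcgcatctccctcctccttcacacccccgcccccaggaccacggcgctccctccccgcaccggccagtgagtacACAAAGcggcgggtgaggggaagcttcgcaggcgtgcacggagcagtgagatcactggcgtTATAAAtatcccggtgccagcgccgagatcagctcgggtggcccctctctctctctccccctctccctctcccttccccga
The SOX motif began 92 bases and the TATA box 31 bases before the start. They were held by 18.8% and 14.2% of all promoters of this length.

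Of 20 other FGF ligands, receptors and feedback genes tested, 2, 4, 2, 2 and 3 rose and 2, 8, 9, 7 and 5 fell in males at 24 h, 1 and 5 weeks and females at 1 and 5 weeks, with list medians of 0.03, -0.15, -0.25, -0.14 and -0.08. The shares of all genes called in these arms were 14.1%, 47%, 34.7%, 45.7% and 42%. Fgf2, a growth factor of glia and neurons, rose in every arm by log2 fold changes of 1.75, 2.48, 1.90, 2.21 and 2.52. It averaged 3.94 CPM ipsilaterally and 0.700 contralaterally in males at 1 week. Fgf9 fell in every arm, by 0.32, 0.87, 0.65, 0.70 and 0.67 on the log2 scale, and so did Fgf18, by 0.51, 0.75, 0.36, 0.62 and 0.31.

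Shh, the secreted hedgehog ligand, was slightly higher ipsilaterally, and this was called early in males and at 1 week in females. At 24 h it ranged from 31.3 to 49.2 CPM (median 38.5) ipsilaterally and from 23.5 to 34.8 CPM (median 30.1) contralaterally, overlapping and higher in 5 of 6 pairs (log2 fold change 0.37 ± 0.0842 SE, 1.3-fold, adjusted p = 0.00155). In females at 1 week it ranged from 30 to 40.3 CPM (median 34) ipsilaterally and from 25.1 to 30.2 CPM (median 27.7) contralaterally, higher in 7 of 7 pairs (0.34 ± 0.078 SE, adjusted p = 0.000397).

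In males at 5 weeks Shh lay at 25.6, 43.6, 33.2, 39.7 and 35.2 CPM ipsilaterally and at 21.2, 30.1, 32.9, 32.9 and 34.6 CPM contralaterally, with library 1 the lowest on both sides. The difference of 0.23 was not called over groups (adjusted p = 0.165), was called without ipsilateral library 1 (0.34, adjusted p = 0.0211), was 0.12 without contralateral library 1 and 0.14 without ipsilateral library 2 (adjusted p = 0.429 and 0.425), and was called with the replicate block (adjusted p = 0.00666), Shh being higher in 5 of 5 pairs. Males at 1 week behaved alike, with 27.6 to 33.7 CPM ipsilaterally and 22.4 to 30.6 CPM contralaterally, 0.23 over groups (adjusted p = 0.0733), adjusted p = 0.0355 without contralateral library 3, and a call with the block (adjusted p = 0.000845, 7 of 7 pairs) or with the 2 groups alone (adjusted p = 0.00933). With contralateral libraries taken from the other week the value was -0.0039 in males at 1 week and 0.46 at 5 weeks (adjusted p = 0.981 and 0.00183). The pairs and the block in these males rest on replicate numbers alone, which are not recorded as the same rat. In females at 5 weeks the value was 0.11 (adjusted p = 0.316). Shh (chromosome 4, 6954017 to 6963170, forward strand) overlaps the noncoding gene LOC102546975 on the other strand, which was called in no arm.

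Of the hedgehog pathway 18 other genes were tested. In males at 24 h 1 rose and 1 fell, at 1 week 4 rose and 1 fell, and at 5 weeks 4 rose and 1 fell, while in females 3 rose and 3 fell at 1 week and 5 rose and 1 fell at 5 weeks. List medians were -0.05, 0.21, 0.04, -0.10 and 0.27, and 14.1%, 47%, 34.7%, 45.7% and 42% of all genes were called. Scube2, which releases lipid-bearing hedgehog from cells, rose by log2 fold changes of 1.93, 1.85, 1.79 and 1.48 in the 4 week arms and had 0.12 at 24 h (adjusted p = 0.82). It averaged 3.03 CPM ipsilaterally and 0.796 contralaterally in males at 1 week. Scube1, its relative, rose in all 5 arms by 0.50, 1.06, 0.67, 0.80 and 0.66.

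Ptch1 and Gli1, the target genes that report hedgehog activity, were called in no arm. Ptch1 had log2 fold changes of -0.24, 0.27, -0.17, -0.17 and 0.30 and Gli1 -0.13, 0.45, 0.06, 0.25 and 0.38. Dhh, the hedgehog that Schwann cells normally make, rose in males at 5 weeks alone (0.19, adjusted p = 0.0493), with values between -0.02 and 0.16 elsewhere. Gli3, the main repressor of the pathway, rose in females at 5 weeks by 0.99 (adjusted p = 1.32e-05) and had -0.27 in females at 1 week, a difference between weeks of 1.26 (adjusted p = 0.000136). As with Pou3f1, its contralateral level in females was lower at 5 weeks than at 1 week (-0.70, adjusted p = 0.00429), in the comparison where markers of myelinating Schwann cells and fibroblasts were lower as well.

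L1cam, an axonal and Schwann cell adhesion molecule of the immunoglobulin family on chromosome X (151597270 to 151623776, reverse strand), was slightly but evenly higher on the ipsilateral side. At 5 weeks in males it lay at 688, 662, 683, 621 and 614 CPM ipsilaterally and at 609, 565, 572, 577 and 574 CPM contralaterally, without overlap (log2 fold change 0.17 ± 0.0332 SE, 1.13-fold, adjusted p = 2e-04).

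At 1 week in males L1cam ranged from 568 to 596 CPM (median 581) ipsilaterally and from 495 to 530 CPM (median 516) contralaterally, and in females at 5 weeks from 676 to 759 (median 707) and from 604 to 676 CPM (median 622), both without overlap (0.17 ± 0.028 SE, adjusted p = 1.78e-05, and 0.18 ± 0.0389 SE, adjusted p = 0.000278). Females at 1 week ranged from 648 to 725 CPM (median 685) ipsilaterally and from 554 to 654 CPM (median 581) contralaterally, with 0.23 ± 0.036 SE (adjusted p = 2.3e-06). At 24 h it ranged from 522 to 588 CPM (median 552) ipsilaterally and from 477 to 544 CPM (median 511) contralaterally, higher in 6 of 6 pairs but not called over groups (0.11 ± 0.0389 SE, adjusted p = 0.0556). It was called there with the replicate block (adjusted p = 0.0148), with the stricter filter on low counts (adjusted p = 0.0434) and without contralateral library 2 or ipsilateral library 1 or 6 (adjusted p = 0.0323, 0.0376 and 0.0347).

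The contralateral level of L1cam in males was higher at 5 weeks than at 1 week, 565 to 609 CPM against 495 to 530 CPM (log2 fold change 0.17 ± 0.0306 SE, adjusted p = 0.000817). The gap between sides at 1 week was thus as large as the gap between weeks on the contralateral side, and set against the contralateral libraries of 5 weeks the ipsilateral libraries of 1 week had 0.0035 (adjusted p = 0.935).

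Cdh2, the cadherin that links axons and immature Schwann cells, differed little between sides, by at most 0.13 on the log2 scale in any arm. In females it ranged from 151 to 162 CPM (median 155) ipsilaterally and 136 to 147 CPM (median 143) contralaterally at 1 week, and from 153 to 163 (median 158) and 144 to 151 CPM (median 147) at 5 weeks. Neither pair of groups overlapped, and the log2 fold changes were 0.13 ± 0.0271 SE (1.1-fold, adjusted p = 9.13e-05) and 0.11 ± 0.0293 SE (1.08-fold, adjusted p = 0.00318). In males the values were 0.0033 at 24 h, 0.03 at 1 week and 0.04 at 5 weeks, none called, and the 95% interval at 1 week ran from -0.04 to 0.11. At 5 weeks in males the libraries lay at 133, 145, 160, 146 and 142 CPM ipsilaterally and 141, 133, 153, 135 and 142 CPM contralaterally. The difference between the sexes at 1 week, 0.09 ± 0.0473 SE, did not pass the test (adjusted p = 0.498). Cdh2 (chromosome 18, 7776704 to 7990934, reverse strand) shares its strand with the overlapping noncoding gene LOC120098203, which was called in males at 1 week alone (-0.35, adjusted p = 0.0184).

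Among 26 L1 relatives, cadherins, catenins and ephrins 2, 6, 5, 6 and 13 rose and 4, 10, 10, 14 and 4 fell in males at 24 h, 1 and 5 weeks and females at 1 and 5 weeks, with list medians of -0.03, -0.09, -0.08, -0.12 and 0.11. Among all genes 14.1%, 47%, 34.7%, 45.7% and 42% were called in these arms. Chl1, the close homologue of L1, rose far more than L1cam, by log2 fold changes of 0.37, 1.04, 1.27, 1.17 and 1.58. It averaged 451 CPM ipsilaterally and 151 contralaterally in females at 5 weeks. Nfasc, an L1 family member of nodes and initial segments, fell by 0.29 and 0.32 in males at 1 and 5 weeks and by 0.35 and 0.18 in females. Jup, a catenin that can bind N-cadherin, rose by 0.13, 0.44, 0.27, 0.43 and 0.29.

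**Figure D3:**
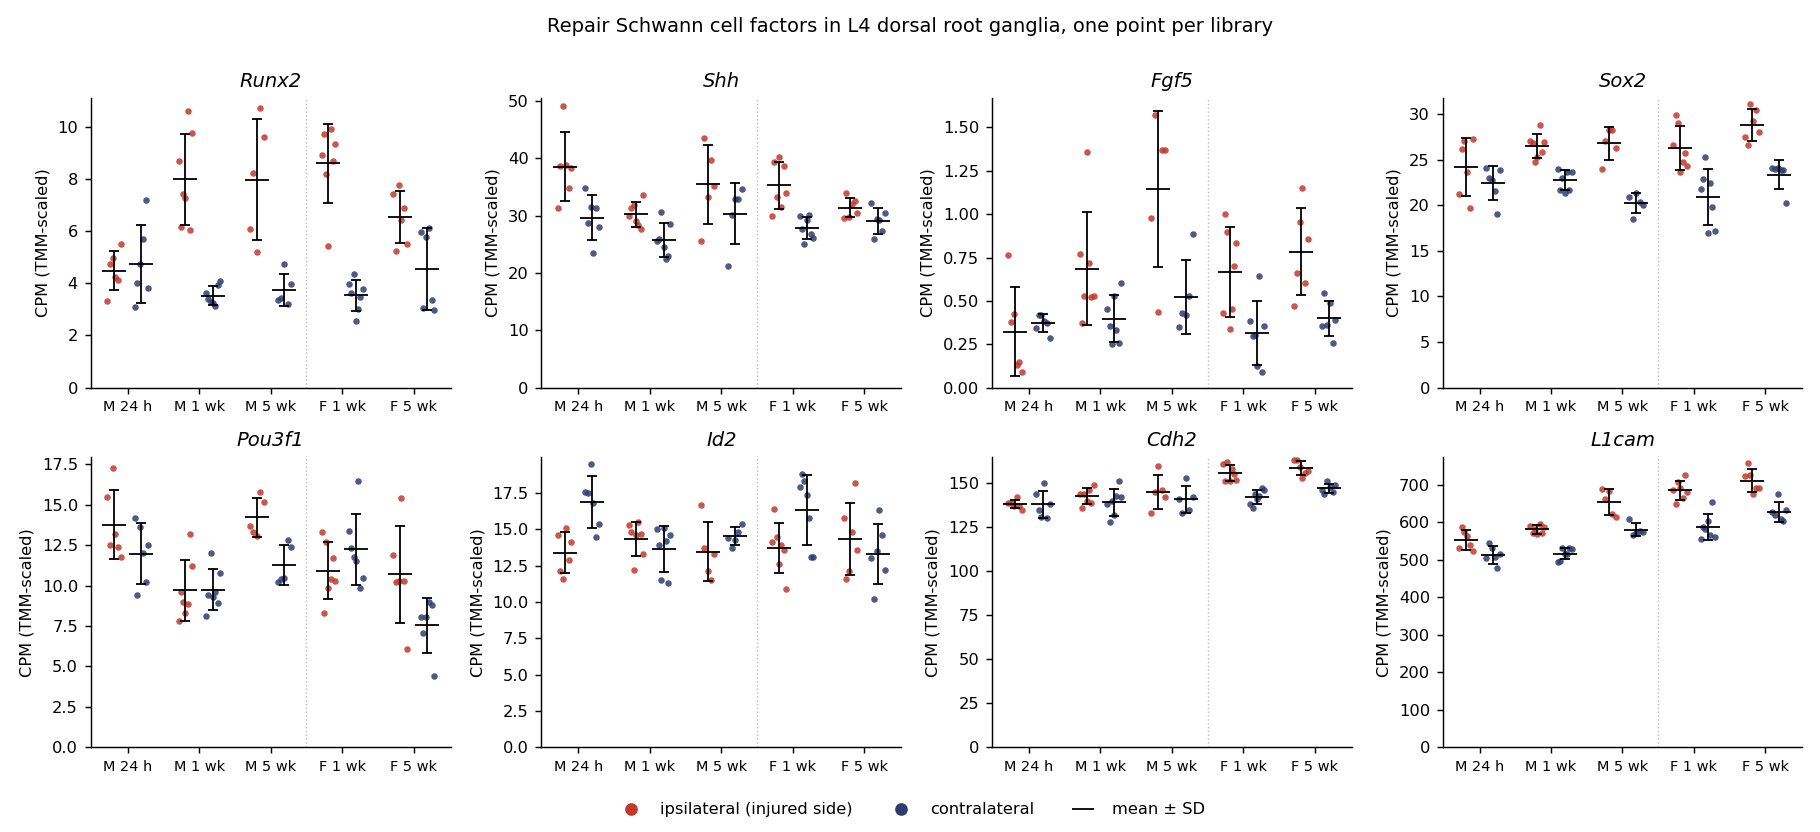
CPM (TMM-scaled within each table, vertical axes from 0) of the 8 tested members, 1 point per library, with mean ± SD. Each arm has ipsilateral libraries left of contralateral ones, and the dotted line parts the male from the female arms. Runx2 separates the sides in males at 1 and 5 weeks and females at 1 week, and the contralateral Pou3f1 level in females is lower at 5 weeks than at 1 week.

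Whether the side difference changed with time was tested as a difference of differences. Between 1 week and 24 h in males 2 of 8 members were called, where 23% of all genes were. Runx2 was higher by 1.26 ± 0.246 SE (adjusted p = 0.000101) and Id2 by 0.40 ± 0.139 SE (adjusted p = 0.0281), in a joint fit of both tables, and week and table cannot be told apart there. The Id2 value was not called without contralateral library 3 or 6 of 1 week, contralateral library 3 of 24 h or ipsilateral library 2 or 3 of 24 h (adjusted p up to 0.0627). Fgf5 had 1.07 ± 0.508 SE (adjusted p = 0.125), called without ipsilateral library 1 of 24 h (1.51, adjusted p = 0.0251).

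Between 5 weeks and 1 week no member was called in males, where 0.211% of all genes were, and 2 were in females, where 13.5% were. By edgeR, the male values with unadjusted p under 0.05 were Sox2 at 0.18 (adjusted p = 0.296) and Pou3f1 at 0.35 (adjusted p = 0.428). In females Runx2 had -0.76 ± 0.252 SE and Pou3f1 0.67 ± 0.221 SE, both at adjusted p = 0.0377. Both calls were lost with limma-voom (adjusted p = 0.0534 and 0.0583), with no filter (0.0662 and 0.0666) and without any 1 of 11 libraries each. For Runx2 these were contralateral libraries 4 and 5 and ipsilateral libraries 2, 5 and 7 of 1 week, and contralateral libraries 1, 3 and 4 and ipsilateral libraries 2, 4 and 6 of 5 weeks. For Pou3f1 they were contralateral libraries 1, 2 and 5 and ipsilateral libraries 2, 4, 5 and 7 of 1 week, and contralateral libraries 2 and 6 and ipsilateral libraries 1 and 4 of 5 weeks. Id2 had 0.36 ± 0.151 SE (adjusted p = 0.112), and adjusted p = 0.025 with the replicate block.

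Between the sexes no member was called at 1 week or at 5 weeks, where 1.11% and 2.11% of all genes were. Sex went with table at both weeks, and these cannot be told apart. At unadjusted p under 0.05 in edgeR, Id2 had a female minus male difference of -0.34 at 1 week (adjusted p = 0.266) and Runx2 of -0.61 at 5 weeks (adjusted p = 0.311, 95% interval -1.13 to -0.08). On the contralateral side alone, 5 weeks against 1 week, 2 of 8 members were called in males (13.5% of all genes), L1cam as above and Sox2 at -0.17 ± 0.0489 SE (adjusted p = 0.0231, 0.0838 without contralateral library 2 of 5 weeks), and Pou3f1 alone in females (10.7%). All 3 of these were without overlap between weeks, as were 7.19% of all genes in males and 4.24% in females.

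The other repair Schwann cell genes moved in the same arms. Of 25 or 26 tested, 9 rose and none fell at 24 h, 19 rose and 4 fell at 1 and at 5 weeks in males, and 16 and 17 rose and 2 fell at 1 and 5 weeks in females, with list medians of 0.06, 0.53, 0.55, 0.51 and 0.45. Higher genes made up 8.23%, 23.6%, 16%, 23.9% and 22.9% of all genes tested in these arms. Jun, the driver of the repair state, already averaged 241 CPM ipsilaterally and 89.9 contralaterally at 24 h and rose by 1.42, 1.67, 1.66, 1.88 and 1.65 on the log2 scale. Gap43, a growth cone protein, rose by 0.36, 1.52, 1.58, 1.75 and 1.45. Nrg1, the axonal and glial neuregulin, fell by 0.68 and 0.52 in males and by 0.69 and 0.22 in females at 1 and 5 weeks. Jun, Gap43 and Nrg1 are also made by injured neurons.

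Myelin genes went the other way at 1 week. Of 24 tested, 12 fell in males at 1 week and 3 rose, and 12 fell in females at 1 week and none rose. At 5 weeks 6 rose and 1 fell in males and 7 rose and 3 fell in females, and at 24 h 1 rose and none fell. On the contralateral side itself 13 of 24 myelin genes in males (median -0.25) and 19 of 24 in females (median -0.56) were lower at 5 weeks than at 1 week, and none was higher. In that comparison 13.5% of all genes were called in males and 10.7% in females. The list medians of the side differences were -0.15, -0.24, -0.19, -0.30 and -0.23, where 14.1%, 47%, 34.7%, 45.7% and 42% of all genes were called. Mag, a myelin adhesion protein, fell at 1 week by 0.53 in males and 0.72 in females, and had -0.21 and -0.29 at 5 weeks, not called. Egr2, the master factor of myelination, was called in no arm (-0.13 to 0.16). Sox10, the factor of the whole Schwann lineage, rose by 0.13 and 0.32 in males at 1 and 5 weeks and by 0.32 in females at 5 weeks. Its 0.15 in females at 1 week was not called (adjusted p = 0.0502). Adgrg6, a receptor needed for myelination, rose at 5 weeks by 0.13 in males and 0.40 in females, and Gpr37l1, a glial receptor, rose by 0.20 at 24 h, 0.13 and 0.25 in males at 1 and 5 weeks and 0.27 in females at 5 weeks.

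**Figure D4:**
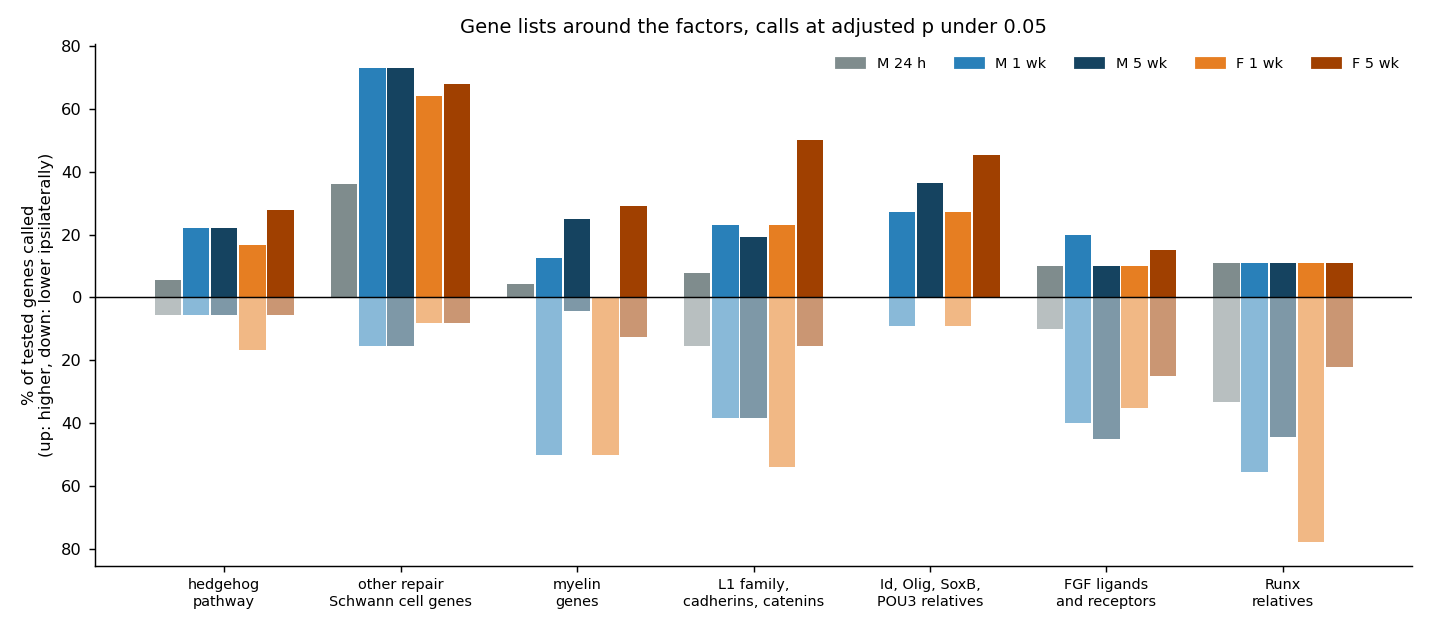
Percent of tested genes of 7 lists that were higher (bars up) or lower (bars down, paler) ipsilaterally at adjusted p under 0.05, in the 5 arms. The other repair Schwann cell genes were mostly higher in the 4 week arms, and 12 of 24 myelin genes were lower at 1 week in both sexes.

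The levels of cell type markers moved with these groups, and cell number and RNA per cell cannot be told apart in them. Of all genes 14.1%, 47% and 34.7% were called in males at 24 h, 1 and 5 weeks, and 45.7% and 42% in females at 1 and 5 weeks. Macrophage markers rose in 10 of 12 in males at 1 week and in females at 1 and 5 weeks, in 3 of 12 with 1 lower in males at 5 weeks, and in none at 24 h. Their summed level ran from 162 to 349 CPM ipsilaterally and 59.7 to 172 CPM contralaterally in males at 1 week, and from 137 to 272 and 66.6 to 90.9 CPM in females at 1 week. Markers of myelinating Schwann cells fell in 9 of 10 at 1 week in both sexes, with sums of 9820 to 15200 CPM ipsilaterally and 13300 to 21200 contralaterally in males. Markers of non-myelinating Schwann cells rose in 5 of 7 and fell in 2 of 7 in males at 1 week, a list that shares Ncam1, Ngfr, Chl1, Gfap and Sox10 with lists above. Fibroblast and perineurium markers rose in 7 of 10 and endothelium and mural cell markers in 4 of 10 in females at 5 weeks. In males 2 of the fibroblast list fell at 24 h, and 3 and 1 rose at 1 and 5 weeks. In females at 1 week 2 rose and 1 fell. Of the endothelium list none rose in these arms, 1 fell in males and 2 in females at 1 week. On the contralateral side of females 6 of 10 fibroblast markers were lower at 5 weeks than at 1 week (median -0.79, 10.7% of all genes called). Of 12 neuron markers 3 rose and 8 fell in males at 1 week, and 4 rose and 7 fell in females at 1 week. At 5 weeks 3 rose and 5 fell in males and 2 rose and 5 fell in females. The summed neuron markers were lower ipsilaterally without overlap in all 4 week arms, for example 19700 to 24000 CPM ipsilaterally and 25000 to 29300 contralaterally in males at 5 weeks, and 22700 to 24400 and 28000 to 30000 CPM in females at 5 weeks. Such a sum gives most weight to the most abundant markers. The median log2 fold changes of the list were -0.29 and -0.10 in males and -0.24 and -0.06 in females at 1 and 5 weeks. Lymphocyte markers rose in 5 of 9 in males at 1 week, and none was called in males at 24 h or 5 weeks. Of 7 tested in females, 1 rose and 1 fell at 1 week, and 1 rose and none fell at 5 weeks. Of 7 central glia markers 1 rose and none fell at 24 h, and 1 rose and 1 fell in males at 1 and at 5 weeks. In females 1 rose and 2 fell at 1 week, and 2 rose and 1 fell at 5 weeks. At 1 week in females the share of ribosomal RNA counts was 0.692 to 1.42% ipsilaterally and 1.69 to 2.76% contralaterally without overlap. The part of these shifts in the members' values was not tested.

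For each member called in at least 1 arm, the genes whose 5 log2 fold changes lay closest were found by the root mean square difference over the 5 arms, among 13116 well-measured named genes (13117 for Fgf5). Nearest to Runx2 were Cidea, Spr and Ypel1, at 0.12, 0.18 and 0.18. Nearest to Fgf5 were Prc1, Tp53i11 and Bard1, each at 0.13, and nearest to Shh were Fam220a, Tmem17 and Riok3, at 0.033 to 0.046. For Sox2 they were Tuba1b, Trip6 and Nelfcd at 0.029 to 0.037, for Pou3f1 Epm2a, Rex2 and Pcdhb16l at 0.095 to 0.1, and for Id2 Grap2, Kcnj8 and Cdc42ep3 at 0.036 to 0.055. Cdh2 was closest to Gtf2h5, Lrwd1 and Rrp15 at 0.017 to 0.021, and L1cam to Pphln1, Thoc6 and Taf6l at 0.015 to 0.021.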

How the data were processed

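Poly-A RNA was counted per gene by the authors, per the labels with a stranded kit and single-end reads. What was deposited is an estimated count for each gene, since shared reads enter as fractions (74.1% and 78.1% of nonzero values are whole in the 2 tables). Per the submitters' processing notes, reads were handled with STAR 2.7.2b, featureCounts 1.6.4, cutadapt 2.5 and bcl2fastq 2.20.0.422, and the build is mRatBN7.2. The 9 members, the gene lists and the tests were chosen with earlier results of these data known.

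Counts were rounded and tested with edgeR 4.0.16 (R 4.3.3) in a group design per table (24 and 38 libraries): TMM, filterByExpr with a minimum count of 10, robust quasi-likelihood test, which left 18980 and 18125 genes. Comparisons across tables used a joint fit (19209 genes). SE is the absolute log2 fold change over the square root of F, intervals are 1.96 SE, and n is as given in the opening. DESeq2 1.42.0 and limma 3.58.1 served as alternatives. Named were the 9 members, 3 nearest genes each, the 3 smallest p-values of each list with Jun, Dhh, Ptch1, Gli1, Egr2, Sox10, Olig2 and Cbfb, with Atf3, Kdm5d and Eif2s3y as checks. Outside this rule, the overlapping genes (Supt3h and the LOC genes) were named for their position. The bone markers (Ibsp, Sp7, Bglap, Dmp1, Col2a1, Col10a1, Alpl, Acp5 and Ctsk) were named after their values were seen. The promoter search used RefSeq sequences of GRCr8. No library was dropped.

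Same-numbered libraries of both sides come from 1 animal in the female and 24 h libraries, per the labels. Deviations of same-numbered libraries from the group means correlated with medians of 0.2125, 0.424 and 0.326 in males at 24 h, 1 and 5 weeks and 0.287 and 0.325 in females at 1 and 5 weeks. These were over 0.1 in 4 of 6, 7 of 7, 5 of 5, 6 of 7 and 6 of 6 pairs. At 24 h ipsilateral libraries 5 and 6 had -0.00868 and -0.0132, and each correlated most with the contralateral library of the other's number. The pair counts and the block at 24 h kept the numbers as labelled. The replicate number entered as a block in an alternative fit, also in males at 1 and 5 weeks, where a shared animal is not recorded.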

Additional observations from a re-analysis of the deposited data

Results flagged for a closer look

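Each tested member was looked at in each of the 10 groups of libraries (80 pairs of a gene and a group) for a library far from the others, which chance alone flags in about 1 of 20, and 4 were found. Fgf5 was 1.36 CPM in ipsilateral library 4 of males at 1 week, where the others held 0.372 to 0.769 CPM. L1cam was 609 CPM in contralateral library 1 of males at 5 weeks, against 565 to 577 CPM in the others. Runx2 was 5.43 CPM in ipsilateral library 4 of females at 1 week, against 8.19 to 9.91 CPM, and without it the log2 fold change was 1.37 (adjusted p = 1.62e-08). Sox2 was 20.2 CPM in contralateral library 6 of females at 5 weeks, against 23.9 to 24.1 CPM.

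In 4 cases the difference between sides itself differed between times by a test of that difference in edgeR. Runx2 had 1.26 for 1 week minus 24 h in males (adjusted p = 0.000101), and -0.76 for 5 weeks minus 1 week in females (adjusted p = 0.0377). Pou3f1 had 0.67 for 5 weeks minus 1 week in females (adjusted p = 0.0377), and Id2 had 0.40 for 1 week minus 24 h in males (adjusted p = 0.0281).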

How the results depend on the processing

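Of 614 member values recomputed under settings other than leaving out 1 library, 583 kept their direction and side of the threshold. With the sign kept, 12 lost their call and 7 gained one, and 12 changed sign, of which 2 had been called and lost the call (Pou3f1 in females at 5 weeks and Id2 in females at 1 week) and Pou3f1 in females at 1 week became called. With the replicate block all members called before stayed called, and 4 more were (Shh in males at 1 and 5 weeks, L1cam at 24 h and Id2 between weeks in females, given above). Relative log expression scaling and DESeq2 ended no member's call. Members called fell to 1 of 8 at 24 h with no filter, to 2 in males at 1 week with contralateral libraries from the other week, and to 0 for 5 weeks minus 1 week in females with no filter or limma-voom. Genes called at 24 h were 1604 with the 2 groups alone (2560 otherwise). For 5 weeks minus 1 week in males they were 140 with DESeq2 and 497 with the block (40), and with the block 517 for female minus male at 1 week (214) and 697 at 5 weeks (405). Signs turned for Cdh2 at 24 h with no filter (-0.00047), for 5 weeks minus 1 week in males for Shh with DESeq2 (0.01), RLE (0.01), no filter (0.02) and limma-voom (0.00024) and for L1cam with the stricter filter (-0.001), and with contralateral libraries from the other week for Shh (-0.0039) and Id2 (-0.02) in males at 1 week, Pou3f1 (0.53) and Id2 (0.04) in females at 1 week, and Pou3f1 (-0.20) and Id2 (-0.19) in females at 5 weeks. The cause was not tested.

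Leaving out 1 library gave 1 to 3 members called at 24 h, 0 to 2 for 5 weeks minus 1 week in females, 1 to 3 for 1 week minus 24 h, and 1 to 3 for contralateral 5 weeks against 1 week in males and in females. Genes called ranged from 26 to 98 for 5 weeks minus 1 week in males. Values whose sign turned without a library were small: at 24 h Runx2 (-0.18 to 0.07) and Cdh2 (-0.02 to 0.03), in males at 1 week Pou3f1 (-0.09 to 0.05), for 5 weeks minus 1 week in males Runx2 (-0.20 to 0.03), Shh (-0.10 to 0.11), Cdh2 (-0.03 to 0.05) and L1cam (-0.01 to 0.04) and in females Fgf5 (-0.37 to 0.05) and Sox2 (-0.08 to 0.02), for female minus male at 5 weeks Pou3f1 (-0.0017 to 0.25) and L1cam (-0.05 to 0.01), and for contralateral 5 weeks against 1 week in males Runx2 (-0.01 to 0.14) and Cdh2 (-0.01 to 0.04). Depth limits Fgf5 and Olig1 most.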
